A study of Mus musculus with 8 samples.

Results

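The 3 genes described here, Hcn2, Hcn3 and Hcn4, encode HCN pacemaker channels. They were found by their GENCODE M21 symbols among the 55450 genes of the count tables, and all 3 passed the filter on low counts that left 16448 tested genes. Each library held nuclear RNA from the cortex of 1 juvenile mouse, taken from nuclei that a cell sorter had collected by their fluorescence. Control mice were Thra+/+. Mutant mice were Thra+/AMI, heterozygous for an allele that encodes a dominant-negative thyroid hormone receptor. Cre recombinase, from a driver that the labels do not name, limited the mutant receptor and a nuclear fluorescent reporter to GABAergic neurons, which release the inhibitory transmitter GABA. The reporter was the basis of the sort in both groups. The series holds 4 control and 4 mutant samples. The table of mutant 10 held the same counts as that of mutant 7 for all 21975 genes with a count and a symbol of their own, so both were counted as 1 library, and 4 controls (1 to 4) were compared with 3 mutants (6, 7 and 8). Which of those mice gave the shared counts is not known.

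HCN channels open when the membrane becomes more negative and let sodium and potassium ions pass, which gives the inward current known as Ih in neurons and as the funny current in the heart. Cyclic AMP binds to their intracellular end and makes HCN2 and HCN4 open more readily, whereas HCN3 shows little such response. HCN4 is the main pacemaker channel of the sinoatrial node, and HCN2 is found through much of the brain and in the heart. Transcription of Hcn2 and Hcn4 in the heart is known to depend on thyroid hormone. The comparison below gives the levels of these genes in cortical inhibitory neurons with and without the mutant receptor.

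Library totals ran from 10747169 to 13804734 counts. Values below are in CPM, counts scaled to a common library total with TMM factors, and 1 CPM stood for at least 10.9 reads in every library. Thra, the targeted gene, averaged 114 ± 9.35 CPM over controls (SD, n = 4) and 87.5 ± 9.39 CPM over mutants (SD, n = 3), without overlap (log2 fold change -0.39, edgeR adjusted p 0.0543). It passed in 6 of 15 alternatives. Counts per gene do not separate the mutant from the normal Thra allele. Pvalb, which encodes parvalbumin of fast-spiking inhibitory neurons, counted 473 to 593 reads per control and 14 to 33 per mutant. Controls 1 and 4 differed from each other by gene length: the median log2 ratio of control 1 to control 4 was 0.47 over genes under 10 kb and -0.73 over genes over 100 kb. Y-linked genes had 4 reads in control 4 and 3 in mutant 8, against 5094 to 6644 in the other libraries.

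None of the 3 HCN genes passed the threshold. In edgeR's quasi-likelihood test 0 of 3 had an adjusted p under 0.05, where 9.42% of all tested genes did (4.63% higher and 4.78% lower in mutants), and 2 of 3, Hcn3 and Hcn4, had an unadjusted p under 0.05, where 22.5% did. DESeq2 called 0 of 3, where it called 1989 of all 16448 tested genes. With sample quality weights, limma-voom called 1 of 3, Hcn3, where it called 3147 of all 16448. Estimates were higher in mutants for Hcn3 (1.27-fold, 95% interval 1.06 to 1.53) and Hcn4 (1.57-fold, 1.11 to 2.22), and lower for Hcn2 (0.88-fold, 0.75 to 1.03). For Hcn3 and Hcn4 every mutant lay above every control, an arrangement found in 11.2% of all tested genes. Groups did not overlap, in either direction, in 22.0% of them, and every mutant lay below every control in 10.7%. In bulk nuclei, fewer cells of a type and less RNA per cell cannot be told apart.

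Hcn2 (ENSMUSG00000020331.9) lies on the plus strand of chromosome 10, from 79716634 to 79736108 in GRCm38. Its annotation holds 2 protein-coding transcripts of 9 and 8 exons, and 0% of its exon bases are shared with another gene. Controls 1 to 4 were at 62.7, 68.4, 75.1 and 73.3 CPM, and mutants 6, 7 and 8 at 66.5, 59.2 and 58.3 CPM. The groups overlapped, since mutant 6 lay above control 1, while the other mutants lay below every control. Hcn2 averaged 69.9 ± 5.56 CPM over controls (SD, n = 4) against 61.3 ± 4.48 CPM over mutants (SD, n = 3). Its log2 fold change was -0.19 (SE 0.11, 95% interval -0.42 to 0.05, edgeR adjusted p 0.348), so a fall by more than 0.42 on the log2 scale lay outside the interval. Counts of 645 to 987 reads gave a counting error of 3.34% in controls, below the 7.95% by which the controls varied.

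The sequence before the transcription start is shown for Hcn2 and Hcn4, because the mutated receptor belongs to the nuclear receptors, which bind the half-site AGGTCA. The RefSeq promoter table (GRCm38.p6) matched 2 of the 3 members, Hcn2 and Hcn4. The 250 bases before each RefSeq start are at chr10:79716384-79716633 and chr9:58822699-58822948, both on the plus strand, and are written 5′ to 3′ with matches to AGGTCA on either strand in capitals.
Hcn2: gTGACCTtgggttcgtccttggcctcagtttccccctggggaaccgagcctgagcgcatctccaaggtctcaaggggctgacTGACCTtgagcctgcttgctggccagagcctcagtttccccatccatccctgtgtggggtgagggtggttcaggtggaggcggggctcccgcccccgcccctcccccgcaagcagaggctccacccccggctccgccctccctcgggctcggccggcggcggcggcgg
Hcn4: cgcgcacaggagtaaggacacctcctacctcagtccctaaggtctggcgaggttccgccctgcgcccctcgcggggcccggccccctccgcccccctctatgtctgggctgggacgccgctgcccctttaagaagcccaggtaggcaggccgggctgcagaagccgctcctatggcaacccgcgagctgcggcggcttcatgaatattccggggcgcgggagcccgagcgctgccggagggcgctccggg
The Hcn2 window held 2 half-sites, both as the reverse complement TGACCT, at bases -249 to -244 and -168 to -163 counted from the start. At least 1 half-site stood in 14% of the 32851 promoter windows of the same length, and 2 or more in 1.36%. The Hcn4 window held 0 half-sites. A direct repeat of AGGTCA with 4 bases between its units, each of them also counted as a half-site, was in neither window and in 0.0152% of all windows. The GC box GGGCGG, searched on both strands, matched 3 times in Hcn2 and 2 times in Hcn4. It stood at least 1 time in 32.7% of all windows, and 2 or more times in 16.7%. TATAAA was in neither window and in 12.4% of all windows. Both windows were rich in G and C, at 70.4% for Hcn2 and 71.2% for Hcn4, against a median of 52.4% over all windows. A match gives letters only, and no binding was measured. The GENCODE start of Hcn2 is the RefSeq one, while that of Hcn4 lies 463 bases downstream of it.

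Hcn3 (ENSMUSG00000028051.10) lies on the minus strand of chromosome 3, from 89146074 to 89160196. Its 4 annotated transcripts include 1 protein-coding one with 8 exons. At its 3′ end 711 exon bases, 17.12% of the total, are shared with Pklr, the pyruvate kinase gene of liver and red cells on the opposite strand, and the sources used here do not say whether counting used the strand. Pklr had 1 to 6 reads per library, against 934 to 1599 for Hcn3, which does not show whether reads in the shared bases were counted. Controls 1 to 4 had Hcn3 at 96, 83.9, 93.1 and 75.3 CPM, and mutants 6, 7 and 8 had it at 108, 98.5 and 125 CPM. The lowest mutant, 7, stood just above the highest control, 1, and mutant 8 was the highest of all. Means were 87.1 ± 9.37 CPM (SD, n = 4) and 111 ± 13.4 CPM (SD, n = 3), and the estimated log2 change was 0.34 (SE 0.12, 95% interval 0.08 to 0.61, edgeR adjusted p 0.107). Counting error was 2.99% in controls, where the libraries varied by 10.8%.

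The call for Hcn3 changed with the setting. It passed without control 1 (log2 fold change 0.40, adjusted p 0.0408), without controls 1 and 4 (0.32, adjusted p 0.0332), with an offset from genomic length (0.36, adjusted p 0.0145) and in limma-voom (0.33, adjusted p 0.0309). With control 4 and mutant 8 left out, the libraries nearly without Y-linked reads and at once the lowest control and the highest mutant for Hcn3, the log2 fold change was 0.18 and the adjusted p 0.425. All 15 alternatives left the estimate above 0, from 0.18 to 0.43. The 4 passing settings also called more of all tested genes, 2038, 2778, 2753 and 3147 in that order, against 1549 as reported. Other settings with more calls, such as without control 4 (2347) and DESeq2 (1989), left Hcn3 uncalled.

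Hcn4 (ENSMUSG00000032338.9) lies on the plus strand of chromosome 9, from 58823412 to 58863175, with 1 annotated transcript of 8 exons and 0% of its exon bases shared. It was the sparsest of the 3, with 46 to 116 reads per library. Controls 1 to 4 were at 4.2, 5.59, 5.25 and 3.71 CPM and mutants 6, 7 and 8 at 9.08, 6.7 and 6.33 CPM. Mutant 6 stood apart from the other mutants, whose values were close to the highest controls. The 95% Poisson intervals, which cover counting error only and not PCR duplication, ran from 4.39 to 7.02 CPM in control 2 and from 5.03 to 7.87 CPM in mutant 8, and so overlapped. Means were 4.69 ± 0.881 CPM (SD, n = 4) and 7.37 ± 1.49 CPM (SD, n = 3), an estimated log2 change of 0.65 (SE 0.23, 95% interval 0.15 to 1.15, edgeR adjusted p 0.107). Counting error was 12.9% of the level in controls and 10.5% in mutants, where the libraries varied by 18.8% and 20.2%. Hcn4 was called in 0 of 15 alternatives, with log2 fold changes from 0.44 without controls 1 and 4 to 0.76 without mutant 8, and adjusted p-values from 0.0633 to 0.387.

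**Figure D1:**
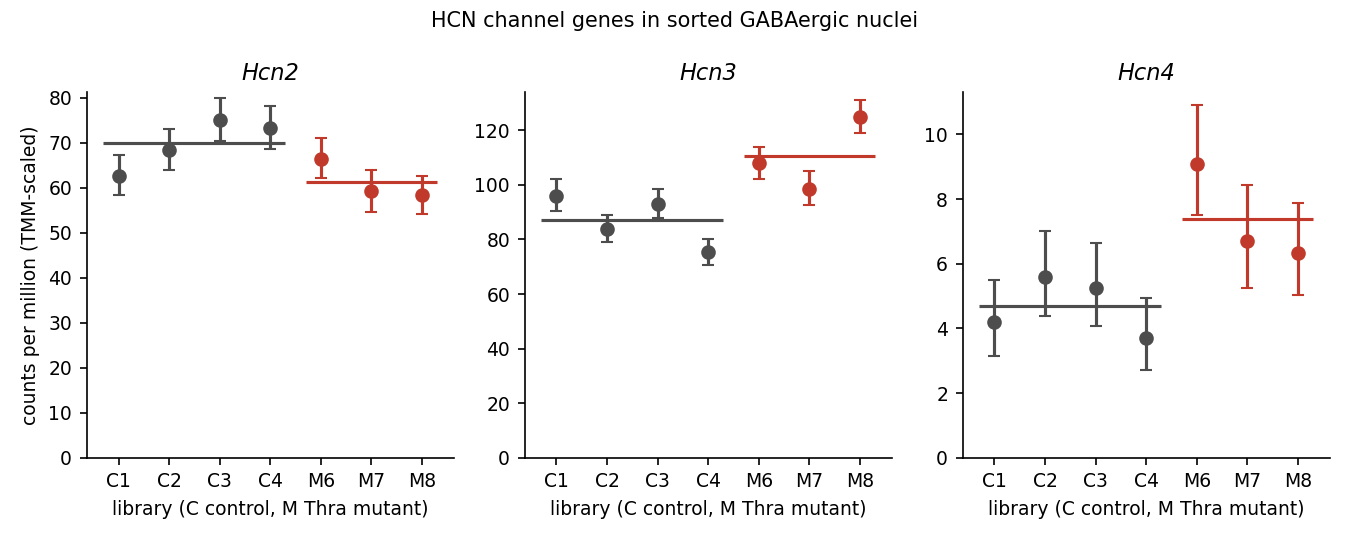
Level of Hcn2, Hcn3 and Hcn4 in each library, in CPM from 0, for controls (C1 to C4, grey) and Thra mutants (M6 to M8, red). Points carry 95% Poisson intervals of counting error and horizontal lines are group means; mutants overlap the controls for Hcn2 and lie above them for Hcn3 and Hcn4, with Hcn4 at 3.71 to 9.08 CPM.

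**Figure D2:**
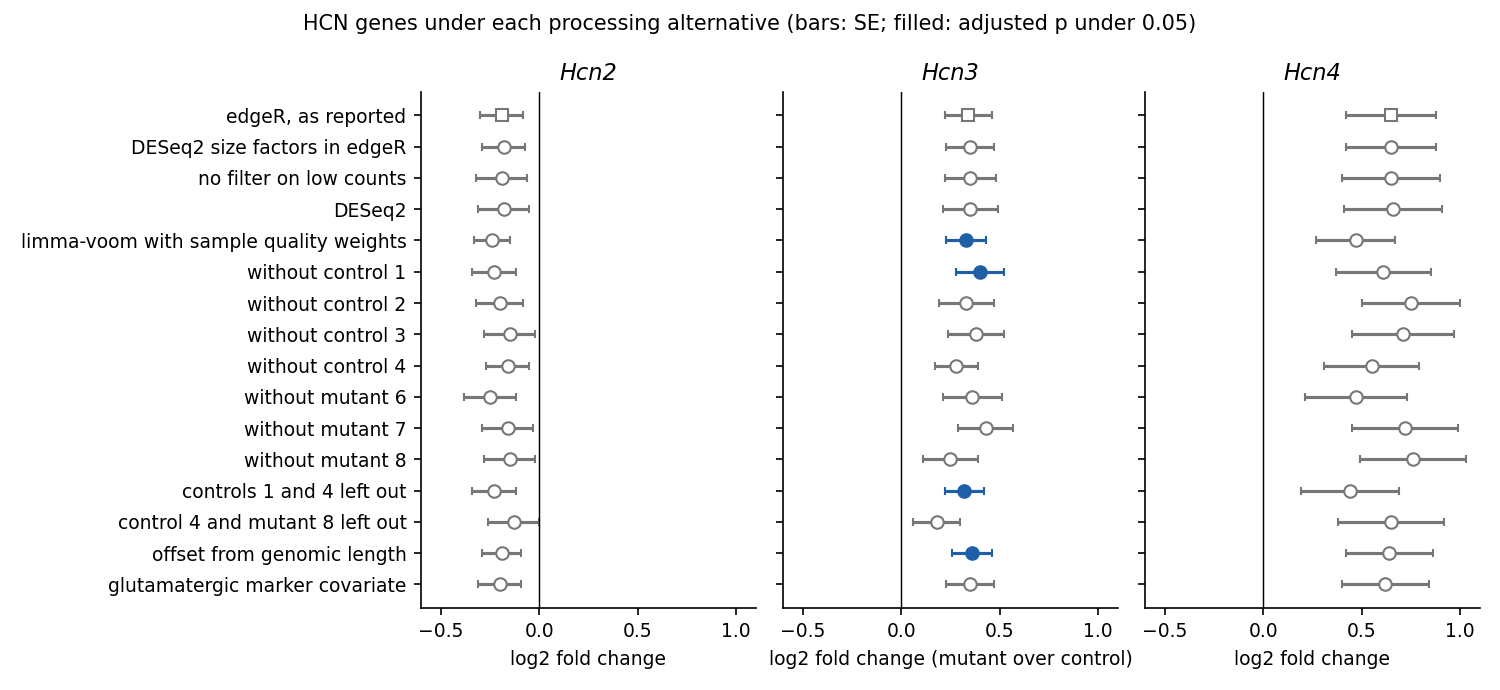
Log2 fold change of mutant over control for each HCN gene in the reported edgeR fit (square) and the 15 alternatives (circles), with bars of 1 SE. Filled points have an adjusted p under 0.05, which holds for 4 alternatives of Hcn3 and for 0 of Hcn2 and Hcn4.

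Levels were compared between the genes per kilobase of merged exon, 3.19 kb for Hcn2, 4.15 kb for Hcn3 and 6.12 kb for Hcn4. The Hcn3 length includes the 711 bases shared with Pklr. If reads there were not counted, the Hcn3 level per kilobase is too low. In controls Hcn2 was at 21.9 ± 1.74 CPM per kb and Hcn3 at 21 ± 2.26 CPM per kb (SD, n = 4), which differed by less than their spread. Hcn4 was far below both, at 0.767 ± 0.144 CPM per kb (SD, n = 4). In mutants the order was Hcn3 at 26.6 ± 3.23, Hcn2 at 19.2 ± 1.4 and Hcn4 at 1.2 ± 0.243 CPM per kb (SD, n = 3), and the lowest Hcn3 value, 23.7, lay above the highest Hcn2 value, 20.8. On this per-length scale Hcn2 exceeded 85.7% of tested genes, Hcn3 88.1% and Hcn4 17.2%. Nuclear RNA holds unspliced transcripts, and whether reads in introns were counted is not given in the sources used here.

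The ratio of the HCN genes within a library does not depend on how libraries are scaled to each other. Hcn3 over Hcn2, per kilobase, gave 1.18, 0.94, 0.95 and 0.79 for controls 1 to 4, against 1.25, 1.28 and 1.65 for mutants 6, 7 and 8. The groups did not overlap, but control 1 came close to mutants 6 and 7, and the ratio was highest in mutant 8. For Hcn4 over Hcn2 the control libraries gave 0.0350, 0.0427, 0.0365 and 0.0264 and the mutant libraries 0.0713, 0.0591 and 0.0567. Here the gap between the groups was wider, with the lowest mutant, 8, above the highest control, 2. These ratios are descriptions over genes chosen with results known, and carry no test. The summed level of the 3 genes was 41.7 to 46.8 CPM per kb in controls and 43.3 to 49.4 in mutants, which overlapped. Controls 1 and 4, which differ by gene length, also differed in these genes, by -0.22 for Hcn2 and 0.35 for Hcn3 on the log2 scale (control 1 over control 4), where the median over tested genes of 10 to 50 kb was 0.09. The part of this difference in the ratio was not tested.

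**Figure D3:**
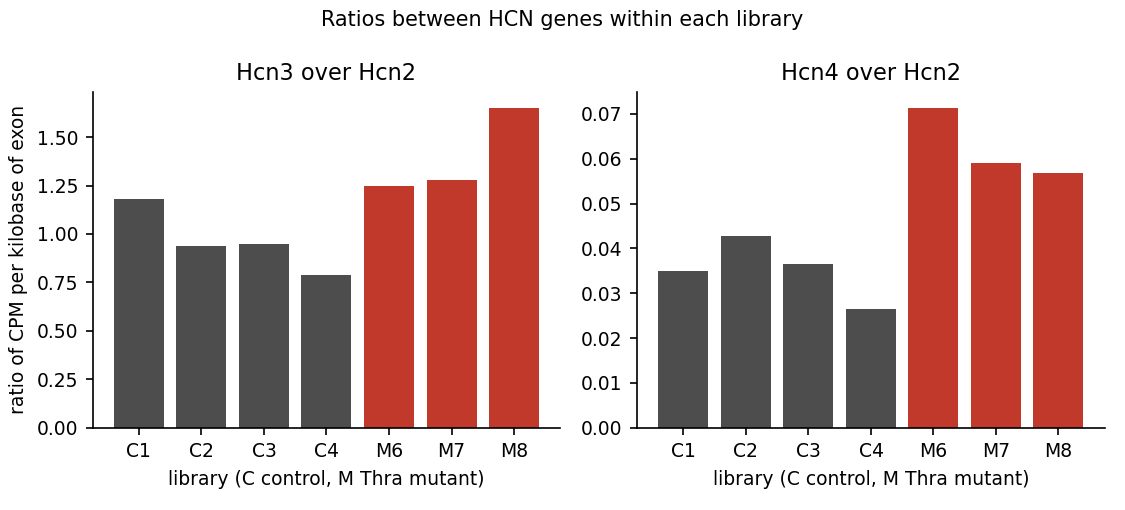
Ratio of Hcn3 to Hcn2 (left) and of Hcn4 to Hcn2 (right) within each library, from CPM per kilobase of exon, on axes that start at 0. Control bars (grey) reach 1.18 and 0.0427 at most, and mutant bars (red) start at 1.25 and 0.0567.

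The genes next to the HCN genes were examined for shifts shared along the chromosome. Within 100 kb of Hcn2, edgeR called 0 of 10 tested genes, with 4 at an unadjusted p under 0.05, DESeq2 called 0 and limma-voom 1. Within 100 kb of Hcn3, each of these tools called 0 of 10, and 0 had an unadjusted p under 0.05 in edgeR. Polrmt, the mitochondrial RNA polymerase gene, lies on the opposite strand with its end 15 bases from that of Hcn2. Its log2 fold change was -0.10 (adjusted p 0.76), and ran from -0.21 without mutant 6 to -0.02 without control 3 or mutant 8. Clk2, a kinase gene 4.6 kb from Hcn3, was at 0.05 (adjusted p 0.861), from 0.0017 without control 4 to 0.11 without control 1. Bsg, the basigin gene 4.7 kb before Hcn2, was at -0.51 (adjusted p 0.123) with 240 CPM in control 1 and 132 to 150 CPM in the other controls. Without control 1 it was -0.27 (adjusted p 0.127). It passed without control 4 (-0.58, adjusted p 0.0311) and with the length offset (-0.46, adjusted p 0.0273). Fdps, 44.1 kb from Hcn3, rested on 7 to 31 reads (0.75, adjusted p 0.293), and 26.71% of its exon bases are shared with Gm43738.

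Of 2 tested genes within 100 kb of Hcn4, 1 was called. Neo1, which encodes the guidance receptor neogenin and lies 11.5 kb beyond Hcn4 on the opposite strand, was at 62.7, 67.5, 67.7 and 82.3 CPM in controls 1 to 4 and at 102, 103 and 99.5 CPM in mutants. Every mutant lay above every control, and Neo1 rose by 0.53 on the log2 scale (SE 0.11, edgeR adjusted p 0.0102). Neo1 shares 0% of its exon bases with other genes. The call was lost without mutant 6 or mutant 7, where the highest adjusted p was 0.054. On the other side, Rec114, a meiotic recombination gene 79.4 kb away, had a log2 fold change of 0.01 (adjusted p 0.982). Rec114 shares 26.94% of its exon bases with Nptn.

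Profiles over the 7 libraries were compared by the root mean square difference of centred log2 CPM, as a description, among 11796 genes whose mean reached 5 CPM. For Hcn2 the most alike genes were Parg, Cramp1l, Bphl, Eml5 and Patl1, at 0.0435 to 0.0473, against a median of 0.248 over all genes. For Hcn3 they were Gyg, Il18bp, Tbrg1, Gm10605 and Mmab, at 0.0621 to 0.0685 (median 0.299). For Hcn4, Rxrg, 1700023F06Rik, Ap1g2 and Rbl1 were at 0.12 to 0.147 (median 0.44). Rxrg encodes a retinoid X receptor, and its log2 fold change was 0.60 (adjusted p 0.0858). Ap1g2 (0.70, adjusted p 0.0203) and Rbl1 (0.72, adjusted p 0.0375) were called higher by edgeR. Between members the difference was 0.326 for Hcn2 and Hcn3, 0.455 for Hcn2 and Hcn4, and 0.293 for Hcn3 and Hcn4, so no member was among the genes most alike to another.

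Proteins that bind HCN channels or set their number and gating formed a list of 14 genes, all tested. edgeR called 1 higher and 1 lower, and the median log2 fold change was 0.01, against -0.01 over all tested genes. Pex5l, which encodes TRIP8b, the brain's best-known accessory subunit of HCN channels, was at 64.6, 113, 93.3 and 253 CPM in controls 1 to 4 and at 69.6, 46.5 and 70.4 CPM in mutants. The controls varied widely, with control 4 far above the rest and control 1 within the range of the mutants. The log2 fold change of Pex5l was -1.07 (SE 0.39, edgeR adjusted p 0.13). It was -0.54 without control 4 (adjusted p 0.0563), and among the 15 alternatives it passed only with controls 1 and 4 both left out (-0.73, adjusted p 0.00113). Kctd3, whose product binds HCN3, was at 49 to 54.8 CPM in controls and 52.6 to 61 CPM in mutants (0.14, edgeR adjusted p 0.509).

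The called genes of that list were Mrvi1 and Flna. Mrvi1 encodes IRAG1, a relative of the HCN4 regulator encoded by Lrmp, and was at 2.78 to 5.32 CPM in controls and 0.459 to 1.17 CPM in mutants, on 5 to 66 reads. It fell by 2.05 on the log2 scale (SE 0.39, edgeR adjusted p 0.00626) and kept its call in all 15 alternatives. Flna encodes filamin A, an actin-binding protein that anchors membrane proteins. Its controls were at 225, 205, 270 and 181 CPM and its mutants at 503, 498 and 447 CPM, a rise of 1.13 on the log2 scale (SE 0.15, edgeR adjusted p 0.000566) that all 15 alternatives kept. Lrmp itself had 5 to 29 reads and a log2 fold change of -1.30 (adjusted p 0.173), which passed in 3 of 15 alternatives, among them without control 1.

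Enzymes that make and break down cyclic AMP, the ligand of HCN channels, were described next. Of 11 tested genes for synthesis, 1 was called: Adcy7, an adenylyl cyclase, rose from 28.3 ± 2.04 CPM (SD, n = 4) to 40.7 ± 4.96 CPM (SD, n = 3), by 0.52 on the log2 scale (edgeR adjusted p 0.0213). Adcy1, the most abundant cyclase of the list, was at 391 to 408 CPM in controls and 418 to 447 CPM in mutants (0.11, adjusted p 0.654). Of 15 tested phosphodiesterases, which break down cyclic nucleotides, 1 was higher and 3 were lower. Pde2a, also listed, was at 0 in every library and not tested, and 64.32% of its exon bases are shared with Gm45837. Pde1c, activated by calcium and calmodulin, rose from 20.3 ± 5.58 to 54 ± 7.76 CPM (1.41, edgeR adjusted p 0.000921) and kept its call in all 15 alternatives. Pde11a (-1.27), Pde4c (-1.20) and Pde7b (-1.03) fell. Pde11a was at 54.6 to 135 CPM in controls and 28.6 to 45.8 CPM in mutants, and Pde7b at 40.8 to 103 CPM in controls and 26.4 to 39.1 CPM in mutants, with control 4 highest for both. Without mutant 7 or mutant 8 the call was lost for Pde11a (highest adjusted p 0.0842), Pde4c (0.0704) and Pde7b (0.148). Pde7b also lost it without control 2 (0.0799) or mutant 6 (0.156), and with no filter on low counts both Pde7b (0.252) and Pde11a (0.174) did. Adcy7 lost its call without control 2, control 3, mutant 6 or mutant 7 (adjusted p up to 0.135). The medians were 0.02 for synthesis and 0.02 for breakdown.

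Other targets of cyclic nucleotides gave few calls. Among 8 genes for protein kinase A subunits and the exchange factors Epac, edgeR called 1, the regulatory subunit gene Prkar2b (0.41, adjusted p 0.0497), which lost its call in 7 of 15 alternatives, without control 2, control 3 or any 1 mutant among them (adjusted p up to 0.205). Of the channels most closely related to HCN by their ligand-binding domain, the cyclic nucleotide-gated channels, 2 of 6 genes were tested, both with a mean near 1 CPM, and 0 were called. Of 5 tested genes for cyclic GMP synthesis 0 were called, and 0 of these 7 genes had an unadjusted p under 0.05 in edgeR. DESeq2 and limma-voom also called 0. Over these 6 lists, 8 of 55 tested genes were called, 14.5% against 9.42% of all tested genes, 4 in each direction.

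In heart muscle the HCN genes belong to a wider set of thyroid hormone-responsive genes, of which 9 of 11 listed ones were tested. edgeR called 1, lower: Atp2a2, the calcium pump of the sarcoplasmic and endoplasmic reticulum, was at 288 to 357 CPM in controls and 213 to 228 CPM in mutants (-0.49, adjusted p 0.0268). Leaving out control 2, control 3 or 1 mutant, whichever it was, ended the call, with adjusted p-values up to 0.132. Kcna5, a potassium channel gene with 8 to 31 reads, lay higher in every mutant without passing (1.12, adjusted p 0.0771). It passed in 3 of 15 alternatives, limma-voom (adjusted p 0.0163), without control 1 (0.028) and the length offset (0.028). Ryr2, the calcium release channel, was at -0.37 (adjusted p 0.2). The list had a median of -0.17, and limma-voom called 4 of its 9 tested genes, where it called 3147 of all 16448.

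**Figure D4:**
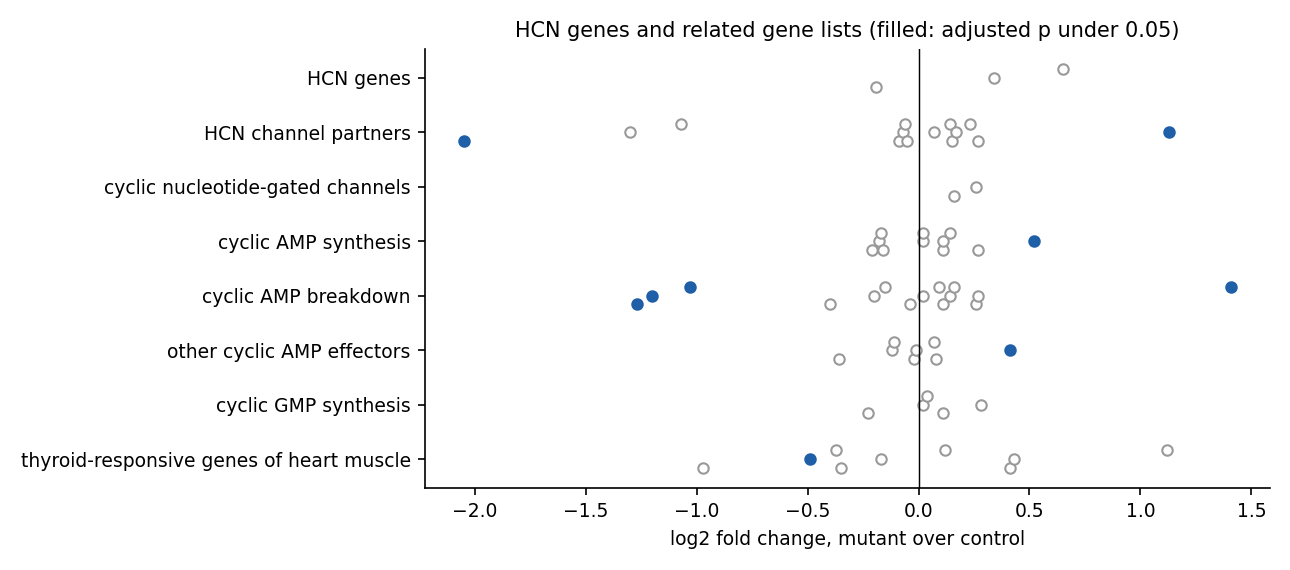
Log2 fold change of mutant over control for the 3 HCN genes and each tested gene of 7 related lists, 1 row per list and 1 point per gene. Filled points have an adjusted p under 0.05 in edgeR and number 9; the HCN genes, from -0.19 to 0.65, are all open.

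Markers of cell types were read beside the HCN genes, since these channels are expressed by other neurons and glia too. Of 6 tested general GABAergic markers 0 were called by edgeR, DESeq2 or limma-voom, 0 had an unadjusted p under 0.05 in edgeR, and their summed level was 2154 to 2544 CPM in controls and 2127 to 2559 CPM in mutants. The summed level of 8 somatostatin neuron markers was 919 to 1089 CPM in controls and 1469 to 1784 CPM in mutants. Sst (0.84), Crhbp (1.03) and Calb1 (1.62) were called higher and Hpse (-1.09) lower. For 11 parvalbumin neuron markers 1 was called higher, Lgi2 (0.49), and 5 lower, Pvalb (-4.48), Syt2 (-2.18), Akr1c18 (-1.82), Kcnc1 (-1.40) and Kcnab3 (-1.08). Their sums of 4610 to 7301 CPM and 5762 to 7016 CPM overlapped. Most of these sums came from Erbb4 (means of 3309 CPM in controls and 3964 CPM in mutants) and Kcnc2 (1465 and 1824 CPM). Neither was called, so the sums say little about the called markers. Markers of VIP neurons (378 to 575 and 552 to 577 CPM) and of LAMP5 neurons (1399 to 1540 and 1216 to 1502 CPM) also had overlapping sums. Called among them were Tac2 (1.05), Cck (0.71), Npas1 (0.65), Crh (-0.74) and Chat (-1.64) for VIP, and Sv2c (0.43), Npy (-0.64), Cplx3 (-1.39) and Gabrd (-1.80) for LAMP5. Reln, not called, was the largest part of the LAMP5 sums, with means of 670 CPM in controls and 901 CPM in mutants. Markers of glutamatergic neurons summed to 235 to 317 CPM in controls and 142 to 212 CPM in mutants. Only Slc30a3 of those 8 was called (-1.10, adjusted p 0.000319), and the defining gene Slc17a7 was at 72.2 ± 21.4 CPM (SD, n = 4) and 67.2 ± 18.4 CPM (SD, n = 3). On average Slc30a3 was the largest part of the glutamatergic sums, with means of 151 CPM in controls and 70.3 CPM in mutants. No other marker of the 8 had an unadjusted p under 0.05 in edgeR, and the median log2 fold change was 0.02. With the glutamatergic markers as a covariate the log2 fold changes were -0.20 for Hcn2, 0.35 for Hcn3 and 0.62 for Hcn4. Oligodendrocyte markers summed to 165 to 203 and 183 to 219 CPM, and astrocyte markers to 235 to 308 and 183 to 207 CPM, in controls and mutants. Slc4a4 made up most of the astrocyte sums, with means of 215 CPM in controls and 148 CPM in mutants. It was the only astrocyte marker that edgeR called. Sums were low for microglia (12.3 to 16.4 and 15.1 to 19.9 CPM) and oligodendrocyte precursors (13.8 to 20.2 and 13.5 to 18.8 CPM). Endothelial markers summed to 52.5 to 117 and 49.9 to 77.3 CPM, with a median log2 fold change of -0.43 over 6 genes, of which 0 had an estimate above 0 and edgeR called 0 (0 at an unadjusted p under 0.05, and 0 by DESeq2). Markers of striatal projection neurons summed to 85.4 to 143 and 138 to 169 CPM, with Rgs9 called among 6. Of 41 tested markers of other cells 4 were called, Slc30a3, Mog (0.93), Slc4a4 (-0.54) and Rgs9 (0.81). This was 9.76%, close to the 9.42% of all tested genes. Rgs9 lost its call without mutant 7 (adjusted p 0.0601), and Slc4a4 without control 2, control 3 or any 1 mutant (up to 0.188). Among the listed genes, 9 were listed at 0 in every library, among them the GABAergic Dlx1 and Dlx6, the astrocyte marker Gfap and the microglial P2ry12. Itgam of the microglial list and Gpr17 of the precursor list were also at 0. How the counting treated these genes is not given in the sources used here, so a 0 need not mean absent RNA. The glutamatergic covariate included Slc30a3, which itself differed between the groups, and covered no other cell type. The part of somatostatin neuron markers and of other cells in the HCN values was not tested.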

How the data were processed

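Nuclear RNA of sorted GABAergic nuclei was sequenced from 8 samples. SMART-Seq v4 was used for cDNA and Nextera XT for libraries, per the labels' protocols. The authors deposited counts of reads per gene, whole numbers without normalization; the submitters' processing notes name Bowtie2 2.5.3, mm10 and GRCm38, and the counting program and strand setting are not given in the sources used here. All 55450 identifiers matched GENCODE M21 (GRCm38).

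The test was edgeR 4.0.16 under R 4.3.3: filterByExpr (least count 10, least total 15), TMM, and a robust quasi-likelihood fit of 4 controls against 3 mutants. P-values were two-sided and Benjamini-Hochberg adjusted over 16448 genes, with calls under 0.05. The SE was the log2 fold change divided by the square root of F. The fit was tested on simulated data. Alternatives used DESeq2 1.42.0, limma 3.58.1, DESeq2 size factors, no filter, a lowess offset on genomic length (span 0.3), a glutamatergic covariate, and fewer libraries. Lists came from general knowledge. The members and lists were chosen with earlier results of these data known. Genes named are the members, label checks, called list genes, nearest coding neighbours and the 5 most alike, of which 1 is not reported here; Pklr, Pex5l, Kctd3, Lrmp, Adcy1, Kcna5, Ryr2, Slc17a7 and the list genes at 0 were named after their values were seen.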

Additional observations from a re-analysis of the deposited data

Results flagged for a closer look

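In the 4 controls, 49 values named here were examined for 1 library far from the others (a gap to the nearest control above Dixon's critical value), and 2 met this; chance flags about 1 in 20. Bsg, the gene before Hcn2, stood at 240 CPM in control 1, where the other controls had 132 to 150 CPM, with a gap of 0.831 of the range. Lrmp, the HCN4 regulator gene, stood at 0.476 CPM in control 1, where the other controls had 2.04 to 2.34 CPM, with a gap of 0.84 of the range. The values of Hcn2, Hcn3 and Hcn4 did not meet it. Groups of 3 mutants were not examined in this way.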

How the results depend on the processing

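Hcn2 and Hcn4 kept their direction and did not pass the threshold in all 15 alternatives, from -0.25 to -0.13 and from 0.44 to 0.76 on the log2 scale. Hcn3 kept its direction and passed in 4: limma-voom (0.33), without control 1 (0.40), without controls 1 and 4 (0.32) and with the length offset (0.36); without single libraries it ran from 0.25 to 0.43. The count of called genes over all tested genes, 1549, was 3147 with limma-voom, 2778 without controls 1 and 4, 2753 with the length offset, and 734 to 2347 when 1 library was left out. The called genes of the 7 lists, 9, became 15 without controls 1 and 4, 15 with the length offset, and 3 (without mutant 7) to 13 without single libraries. Rec114, at 0.01, changed sign without control 1 (-0.04), control 3 (-0.03) or mutant 6 (-0.03) and with the glutamatergic covariate (-0.00034), and reached 0.07 without control 4. Among these single libraries the lowest count of called genes was without mutant 7 and the highest without control 4, and without control 3, mutant 6 and mutant 8 it was 1016, 766 and 816. The cause of these changes was not tested. No paired analysis was possible because controls and mutants share no replicate number. Depth limited Hcn4 most, at 46 to 116 reads and a counting error of 12.9% in controls, against 3.34% for Hcn2 and 2.99% for Hcn3.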
